A study of Sus scrofa with 48 samples.

Results

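MBOAT7, ALOX12 and PTGS2 encode 3 enzymes that act on arachidonic acid, and each was represented by 1 probe on the porcine array. The probes were A_72_P421739 for MBOAT7, A_72_P098751 for ALOX12 and A_72_P302784 for PTGS2. These 3 probes were taken from 43603 on the array. No further probe of the 3 genes could be named from the annotation used here. The PTGS2 probe carried the pig RefSeq transcript. The other two names came from the study, which gave the expressed sequence tag behind the MBOAT7 probe and the human orthologue of the transcript behind the ALOX12 probe. RefSeq lists a pig ALOX12 gene, but it also gives ALOX12 as a synonym of ALOX15, and the name of the ALOX12 probe could not be checked against its sequence here. Values given for MBOAT7 and ALOX12 are those of 1 probe each. Whether these signals follow the transcripts of the genes was not tested here. All 3 genes were selected with their differences between the pig lines on these same arrays in view, so those differences are given as a description, without a test.

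Arachidonic acid is a polyunsaturated fatty acid that cells keep esterified in membrane phospholipids. MBOAT7 (LPIAT1) is the acyltransferase that returns free arachidonate to lysophosphatidylinositol and so keeps phosphatidylinositol rich in it. Once a phospholipase has released arachidonate, cyclooxygenases such as PTGS2 (COX-2), the inducible form, turn it into the prostaglandin precursor, whereas 12-lipoxygenase, the product of ALOX12, adds oxygen at another carbon and gives 12-HETE, a product best known from platelets. In liver, arachidonate-rich phosphatidylinositol made by MBOAT7 is known for its link to fat storage.

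RNA came from gluteus medius muscle, liver and kidney of 16 Large White F2 pigs, with 48 arrays in all. The 8 F2 E pigs descended through the male line from F0 boars on a diet enriched in methionine, choline, betaine, folate and the vitamins B6 and B12, and the 8 F2 C pigs descended from F0 boars on the standard diet. All F1 and F2 pigs of both lines ate the standard diet. Each line held 4 barrows and 4 females, and also 4 pigs with lower and 4 with higher animal numbers, called the lower and the upper number series here. The 3 tissues of a pig carry the same animal number. The pigs are grandoffspring of few boars, so pigs of a line are not unrelated animals.

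Signals are the median pixel intensity of a spot after quantile normalization within a tissue, as log2. The median spot signal of an array lay between 48 and 88.5 in muscle, 88 and 167 in liver, and 48 and 240.5 in kidney, on the linear scale before normalization. Marker genes separated each tissue from the other 2 on every array for 12 of 12 muscle, 9 of 9 liver and 4 of 4 kidney probes. Each slide of muscle or kidney held the 4 pigs of 1 line in 1 number series, so slide and line cannot be told apart there. A ratio within a number series therefore compares 1 slide with another in these tissues. In liver this holds for the upper series, whereas 2 of the 4 liver slides, those of the lower series, held both lines. A pair of kidney arrays, both F2 E, had the lowest median signal of 48, and without these pigs the kidney ratios described below were -2.002 for MBOAT7, -0.56 for ALOX12 and 0.31 for PTGS2. All 3 probes passed the filter for presence in every tissue. In bulk tissue, a lower signal from fewer cells of a type cannot be told apart from less RNA per cell.

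The MBOAT7 probe had a lower signal in F2 E than in F2 C pigs in muscle, liver and kidney. The same 7 of 8 F2 E pigs were low in every tissue. In muscle, the lowest, median and highest log2 signals were 7.91, 8.20 and 8.68 in F2 C pigs. They were 6.16, 6.47 and 8.28 in F2 E pigs. A single F2 E value, the highest, overlapped with the control line in muscle.

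In liver, the F2 C pigs ran from 10.12 over a median of 10.53 to 10.79, and the F2 E pigs from 7.91 over a median of 8.17 to 10.67. Kidney gave 10.33, 10.73 and 11.17 for the lowest, median and highest F2 C pig and 8.31, 8.53 and 10.24 for the F2 E pigs. The lines did not overlap in kidney, a separation shown by 0.0297% of the 33664 kidney probes in either direction. The highest F2 E pig lay close under the lowest F2 C pig.

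The mean log2 ratio of MBOAT7, F2 E to F2 C, was -1.52 for muscle (limma standard error 0.225, n = 8 per line), -2.05 for liver (0.303) and -1.90 for kidney (0.242). These ratios correspond to signals 2.86-fold, 4.15-fold and 3.74-fold lower in F2 E pigs. For orientation, the fit that gave these errors passed 0.769% of the 25625 probes present in muscle, 0.0937% of the 28823 present in liver and 0.0119% of the 33664 present in kidney at an adjusted p below 0.05 (limma, Benjamini-Hochberg). Within the lower and the upper number series the MBOAT7 ratios were -1.66 and -1.38 for muscle. They were -2.16 and -1.95 for liver and -1.97 and -1.83 for kidney. Within the 2 liver slides that held both lines, the ratio was -2.28 and -2.03. The muscle signal of MBOAT7 was well above background in 8 of 8 F2 C arrays but in 5 of 8 F2 E arrays. From the processed signal, which is background-corrected, after scaling arrays to their 75th percentile, the muscle ratio was -2.11.

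**Figure D1:**
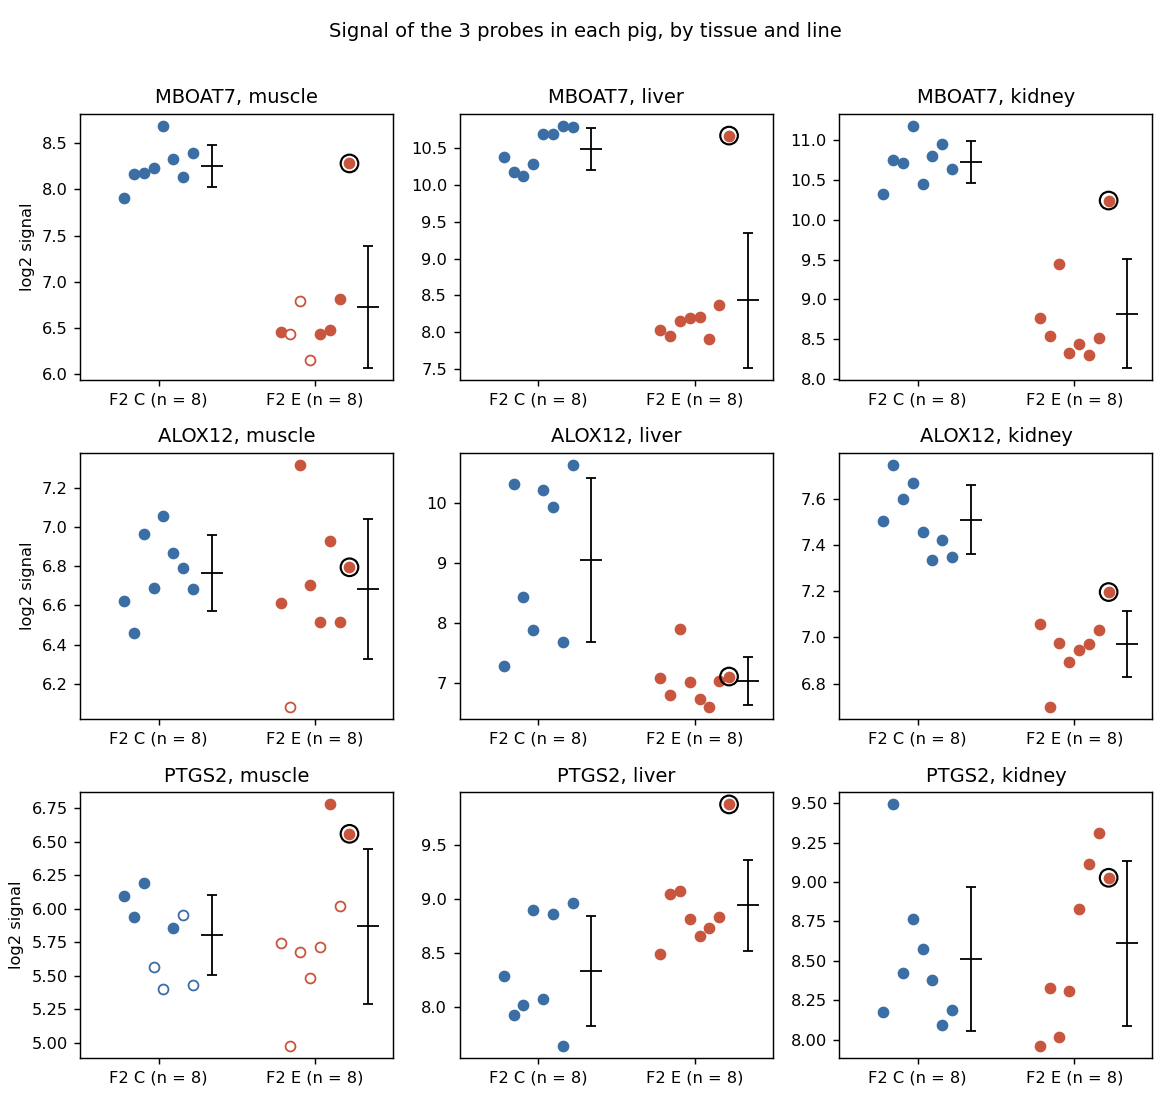
The log2 signal of each probe (rows) in every pig by tissue (columns) and line, with the mean and SD of the 8 pigs beside the points; open points were not well above background, and the black ring marks F2 E pig 3. The ringed pig stands with the F2 C pigs for MBOAT7 in muscle and liver and just below them in kidney, ALOX12 in liver falls apart within F2 C, and PTGS2 overlaps between the lines in all 3 tissues.

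The exception in F2 E was 1 female, F2 E pig 3 by its replicate number in the labels. Its MBOAT7 signal was 8.28 in muscle, 10.67 in liver and 10.24 in kidney. It lay 0.03 and 0.18 above the F2 C mean in muscle and liver and fell by 0.48 below it in kidney. The remaining 7 F2 E pigs averaged 6.51 ± 0.23 in muscle, 8.12 ± 0.16 in liver and 8.62 ± 0.39 in kidney (SD, n = 7). Their mean was 3.34-fold, 5.18-fold and 4.30-fold below the F2 C mean.

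The widest gap in the ordered MBOAT7 signals fell between the same 7 pigs and the other 9 in each tissue. It spanned 1.09 in muscle, 1.75 in liver and 0.80 in kidney on the log2 scale. Of 23371 probes measured in all 3 tissues, 77 (0.329%) had their widest gap between the same 2 sets of pigs in every tissue, counting sets of 2 or more animals. The MBOAT7 probe was the only one of them with this set of pigs, and 20 of the 77 divided the barrows from the females. The line difference of MBOAT7 had been used to select it, so its place among these probes is a description.

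Within these sets, no relation of a pig's MBOAT7 level between tissues passed a permutation test. In F2 C pigs, Pearson's r of MBOAT7 was 0.45 between muscle and liver, -0.06 between muscle and kidney and -0.10 between liver and kidney, with exact permutation p of 0.279, 0.897 and 0.813 (n = 8, two-sided). Spearman's rho was 0.19, -0.07 and 0.07, with exact permutation p of 0.665, 0.882 and 0.882. In the 7 low F2 E pigs, r was 0.34, 0.59 and 0.07 for the same pairs, with exact permutation p of 0.458, 0.183 and 0.878, and rho was 0.04, 0.36 and 0.04 (exact p = 0.963, 0.444 and 0.963). No r is given over all 16 pigs because the pigs form separate groups. Of the 20 relations between tissues computed for the 3 genes, 0 had an unadjusted permutation p below 0.05, and the smallest adjusted p was 0.703.

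**Figure D2:**
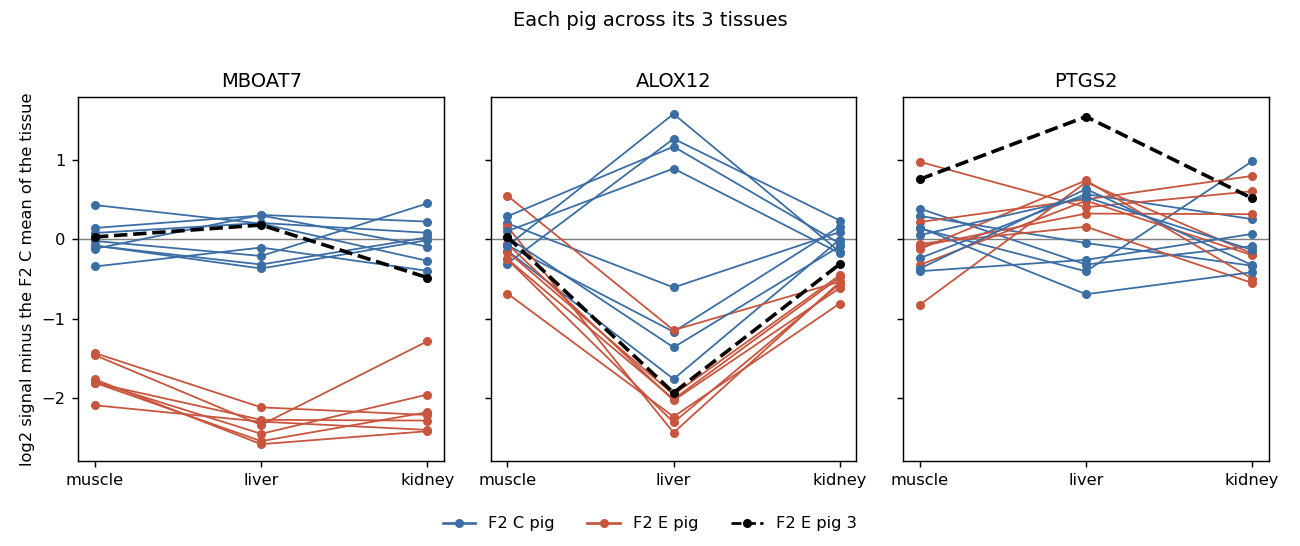
Each line joins the 3 tissues of 1 pig; the vertical axis is the log2 signal minus the F2 C mean of that tissue, with F2 C pigs in blue, F2 E pigs in red and F2 E pig 3 dashed in black. For MBOAT7 the same 7 F2 E pigs stay low in every tissue while F2 E pig 3 stays nearer 0; for ALOX12 the spread is widest in liver, and for PTGS2 the lines mix.

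ALOX12 was lower in F2 E pigs in liver and kidney and overlapped between the lines in muscle. In liver, the F2 C signals had a lowest value of 7.28, a median of 9.19 and a highest value of 10.62. The F2 E signals were lower and closer together, at 6.61, 7.02 and 7.90. The log2 ratio in liver was -2.01 (limma standard error 0.443, n = 8 per line), a 4.02-fold lower signal in F2 E pigs.

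The F2 C livers fell into separate sets for ALOX12. F2 C pigs 1, 2, 4 and 6 lay between 9.93 and 10.62. The other 4 F2 C pigs lay between 7.28 and 8.44 and overlapped with the F2 E pigs. No liver of either line lay between 8.44 and 9.93. The high pigs 1, 2 and 4 shared a slide with F2 C pig 3, which was not high. Pig 6 was on a slide that held both lines. The slide of pigs 1 to 4 held the 4 liver arrays with the most marked outlier spots, 65 to 425 against 6 to 28 on the others. A part of the slide in the split was not tested. The 4 high pigs averaged 9.39-fold above the F2 E mean, and the other 4 exceeded that mean by 0.78 on the log2 scale. The 4 high livers did not stand apart in the other tissues, where the high minus other difference was -0.00113 in muscle and -0.08 in kidney. Within the number series, the liver ratio was -1.27 (lower) and -2.74 (upper, 1 slide against another). Within the 2 liver slides with both lines, which hold the lower series, it was -1.85 and -0.70.

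Platelet markers were compared because 12-lipoxygenase is abundant in platelets. Of 11 platelet genes, 4 had a named probe and 3 of these probes were present in liver. Their summed linear signal ran from 2385 to 3625 in the 4 high livers and from 2356 to 3761 in the other 12. For neutrophil and monocyte genes the sums ran from 74027 to 101682 and from 72254 to 119344. The sums of the 4 high livers overlapped with those of the other 12 for both lists, and their part in the ALOX12 signal was not tested.

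In kidney, the ALOX12 signals of F2 C pigs were 7.33, 7.48 and 7.75 (lowest, median and highest), and those of F2 E pigs were 6.70, 6.97 and 7.20. All 8 F2 E pigs lay below all 8 F2 C pigs, a separation shown by 0.0297% of the 33664 kidney probes in either direction. The log2 ratio was -0.54 (standard error 0.0945), or 1.45-fold lower. It was -0.72 within the lower and -0.35 within the upper series. Muscle gave 6.46, 6.74 and 7.05 for F2 C and 6.08, 6.66 and 7.31 for F2 E pigs, a ratio of -0.08 (standard error 0.142) within the spread of the pigs. The spread of ALOX12 among F2 C pigs was widest in liver (SD 1.36, against 0.19 in muscle and 0.15 in kidney).

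For ALOX12, no relation between tissues passed the test. Over the 16 pigs with line means removed, r between muscle and kidney was 0.15 (permutation p = 0.585, two-sided; rho = 0.08, permutation p = 0.778). Without the 2 pigs farthest from the median it was -0.26. In F2 E pigs, r was 0.65 between muscle and liver (exact permutation p = 0.101, n = 8) and 0.24 between liver and kidney (exact permutation p = 0.491), with rho of 0.40 and 0.64. The first of these rested on 2 pigs, since it turned to -0.30 without them. The split of the F2 C livers leaves no r with liver for that line. Between muscle and kidney, r was -0.43 in F2 C and 0.50 in F2 E pigs (exact permutation p = 0.281 and 0.192, n = 8).

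PTGS2 overlapped between the lines in all 3 tissues. In liver, the signals of F2 C pigs were 7.64, 8.18 and 8.97 (lowest, median and highest), and those of F2 E pigs were 8.49, 8.83 and 9.88. The liver ratio was 0.61 (limma standard error 0.215, n = 8 per line), a 1.52-fold higher signal in F2 E pigs, and it was 0.58 in the lower and 0.64 in the upper series. F2 E pig 3 was again at the edge, with the highest PTGS2 signal of all 16 livers. Without it the ratio was 0.47.

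In kidney, PTGS2 lay at 8.10, 8.40 and 9.49 in F2 C pigs and at 7.96, 8.58 and 9.31 in F2 E pigs. The ratio of 0.10 (standard error 0.230) held opposite signs in the number series, -0.56 in the lower and 0.76 in the upper one. Each of these series values compares 1 slide with another. In the upper series the 4 F2 E kidneys ran from 8.83 to 9.31 and the 4 F2 C kidneys from 8.10 to 8.58. The share of all kidney probes that separate in this way was not computed, so the separation is no result about PTGS2. A fit within this series alone called 534 kidney probes, against 4 over both series (limma, adjusted p below 0.05). In the lower series, F2 E kidneys reached from 7.96 to 8.33 and F2 C kidneys from 8.18 to 9.49. Muscle showed the same pattern of signs, with -0.48 and 0.61 around a ratio of 0.07 (standard error 0.212). There the signal was dim: 4 of 8 F2 C and 2 of 8 F2 E arrays were well above background, with values from 5.40 to 6.19 and from 4.98 to 6.78.

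For PTGS2, no relation between tissues passed the test either. With line means removed, r over 16 pigs was -0.02 between muscle and liver, 0.42 between muscle and kidney and 0.05 between liver and kidney, with permutation p of 0.938, 0.131 and 0.859 (two-sided) and rho of -0.15, 0.32 and 0.07. Without the 2 pigs farthest from the median, r was 0.11, 0.31 and -0.02. Within lines the r between muscle and kidney was -0.04 in F2 C and 0.65 in F2 E pigs (exact permutation p = 0.945 and 0.0876, n = 8), with the dim muscle signal given above. The other within-line values ran from -0.50 to 0.27.

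Between genes, 18 relations within tissues were tested by permutation and 0 passed the adjustment (smallest adjusted p = 0.102), while 3 had an unadjusted p below 0.05. In the kidneys, ALOX12 and PTGS2 gave r = 0.54 over 16 pigs with line means removed (permutation p = 0.0324, adjusted p = 0.195; rho = 0.45, permutation p = 0.0879). Within F2 C kidneys r was 0.79 (exact permutation p = 0.0113, n = 8, adjusted p = 0.102) and 0.24 without the 2 pigs farthest from the median, so it rested on those. In F2 E kidneys it was 0.33. In muscle of F2 C pigs, MBOAT7 and PTGS2 ran opposite (r = -0.79, rho = -0.83, exact permutation p = 0.0102 and 0.0154, n = 8, adjusted p = 0.102), and r remained at -0.71 without the 2 farthest pigs. PTGS2 was well above background on 4 of these 8 arrays. In the 7 low F2 E pigs the same relation was 0.25 (exact permutation p = 0.611).

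The levels of the 3 genes between tissues were not used to choose them and were tested in a fit to all 48 arrays, normalized together, with pig as a block. That fit called 71% of 34514 probes between liver and muscle, 75.4% between kidney and muscle and 70.3% between kidney and liver at an adjusted p below 0.05 (limma, Benjamini-Hochberg), so a call is the usual case. The scale of this fit differs from the within-tissue scale above. MBOAT7 had its highest mean in liver (9.47 ± 1.25, SD, n = 16 pigs), followed by kidney (9.21 ± 1.08) and muscle (8.36 ± 1.01). Liver exceeded muscle by 1.11 on the log2 scale (adjusted p = 1.45e-12) and kidney exceeded muscle by 0.85 (adjusted p = 9.79e-10), each in 16 of 16 pigs. Kidney and liver differed by -0.26 (adjusted p = 0.0205), with kidney higher in 5 of 16 pigs, and this call was lost with pig as a random block (adjusted p = 0.528) and without a block (adjusted p = 0.558).

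PTGS2 followed the same order, with means of 8.66 ± 0.56 in liver, 8.03 ± 0.45 in kidney and 6.36 ± 0.61 in muscle. It exceeded muscle by 2.30 in liver and by 1.66 in kidney, in 16 of 16 pigs each (adjusted p = 6.11e-15 and 3.29e-11). The muscle signal was well above background on 6 of 16 arrays, so the sizes are uncertain: they were 3.28 and 2.59 from the processed signal and 1.85 and 1.19 from the median signal scaled to the 75th percentile. Kidney minus liver was -0.63 (adjusted p = 0.00114), with kidney higher in 1 of 16 pigs. In F2 C pigs alone it was -0.37 (adjusted p = 0.175).

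ALOX12 averaged 8.00 ± 1.46 in liver, 7.54 ± 0.34 in muscle and 6.86 ± 0.26 in kidney. Kidney was below liver by a difference of -1.14 (adjusted p = 0.000247) and below muscle by -0.68 (adjusted p = 0.0202), with kidney higher in 1 of 16 pigs for either pair. Liver minus muscle was 0.46 (adjusted p = 0.119), with liver higher in 7 of 16 pigs. The sign of this mean difference was not the same in the lines, which was not tested. It was 1.45 in F2 C and -0.53 in F2 E pigs. These values are a description, since ALOX12 was selected with its line difference in view. By line means, ALOX12 therefore had liver first in F2 C and muscle first in F2 E pigs. This order restates the line difference in liver. On the scale of this fit, the 4 high F2 C livers lay between 9.955 and 10.63, above all F2 C muscle values (7.22 to 7.92). The other F2 C livers lay between 7.23 and 8.45 and overlapped with that range. Among F2 C pigs, liver was below muscle in pig 5 alone (7.23 against 7.42). The size of the F2 C difference therefore rested largely on the 4 high livers. In F2 C pigs kidney minus muscle was -0.51 (adjusted p = 0.202), and in F2 E pigs kidney minus liver was -0.32 (adjusted p = 0.0723).

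**Figure D3:**
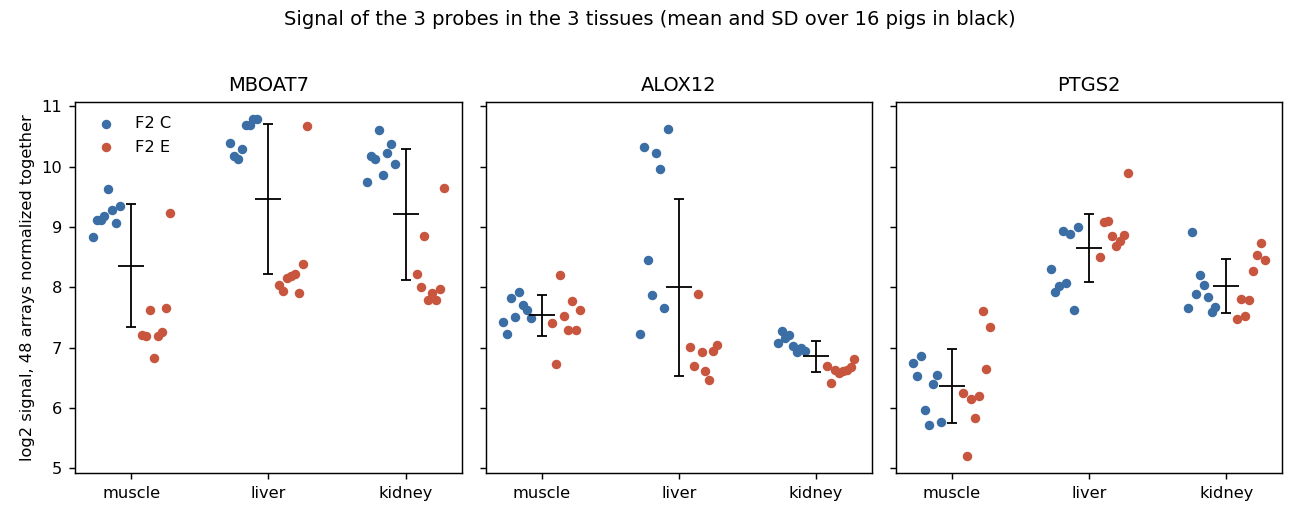
The log2 signal of each probe in the 3 tissues after the 48 arrays were normalized together, with F2 C pigs in blue, F2 E pigs in red and the mean and SD over all 16 pigs in black. Muscle is lowest for MBOAT7 and PTGS2 and kidney is lowest for ALOX12, whose liver values reach from below 7 to above 10.

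Sex was not used to choose the genes either. Barrow minus female was called for 0.121% of muscle, 0.121% of liver and 0.0921% of kidney probes at an adjusted p below 0.05 (limma with line in the model). None of the 3 genes was called in any tissue (adjusted p from 0.536 to 1.00). The barrow minus female difference of MBOAT7 was -0.26 in muscle, -0.42 in liver and -0.45 in kidney (standard errors 0.223, 0.295 and 0.223). Without F2 E pig 3 it was -0.04, -0.10 and -0.26. An interaction of line and sex was called for 0% of probes in each tissue, with 886, 506 and 884 probes at an unadjusted p below 0.05 in muscle, liver and kidney. For the 3 genes, unadjusted p of the interaction ran from 0.179 to 0.711 (limma). The MBOAT7 ratio of the lines was -1.82 in barrows and -1.22 in females for muscle, -2.46 and -1.65 for liver, and -2.07 and -1.74 for kidney, where the females include F2 E pig 3.

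The surrounding pathway was followed through lists of genes. Of 92 genes in 6 lists of arachidonate genes, 27 had a probe with a RefSeq name, so most members were not followed. Among their probes 1 of 32 was called in muscle, 0 of 38 in liver and 0 of 40 in kidney (limma, adjusted p below 0.05), and 3, 3 and 1 had an unadjusted p below 0.05. Over all probes present, 0.769%, 0.0937% and 0.0119% were called, and 16.1%, 8.29% and 3.89% had an unadjusted p below 0.05, so counts this low do not set the lists apart. With the same adjustment, the methods' t-test called 0, 0 and 0. The median ratio over these probes was -0.01 in muscle, -0.14 in liver and 0.09 in kidney, beside medians of -0.02, -0.02 and -0.01 over all probes.

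The probe called was PTGFR, the receptor for prostaglandin F2α, in muscle. Its signals were 5.34, 5.69 and 5.85 (lowest, median and highest) in F2 C pigs and 5.90, 6.19 and 6.83 in F2 E pigs. The signal was well above background on 1 of 8 F2 C and 5 of 8 F2 E arrays, so the probe passed the filter through F2 E pigs alone. Neither the call nor the size of the difference is therefore firm. The ratio was 0.60 (standard error 0.131, adjusted p = 0.0428), and it ran from 0.54 to 1.57 over 14 other settings. The call was lost with slide as a random block (limma, adjusted p = 0.612). Over the 14 settings, the adjusted p ran from 0.0185 to 0.612 and was below 0.05 in 6, the slide block not among them. The call was also lost in 11 of the 16 fits that left out 1 pig (adjusted p up to 0.0838). In kidney the same probe gave 0.37 (standard error 0.146, adjusted p = 1.00), and in liver it was not present.

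Among the genes that supply and release arachidonate, 3 of 22 were named on the array and 0 were called in any tissue. ACSL4, the acyl-CoA synthetase that prefers arachidonate, had the smallest p of the list in muscle with 1 of its probes (-0.28, adjusted p = 0.304) and in kidney with another (0.15, adjusted p = 1.00). The ACSL4 probes disagreed in muscle, where the other 4 ran from -0.03 to 0.36. FAAH, which hydrolyses anandamide, had it in liver (-0.23, adjusted p = 0.71). Of the acyltransferases related to MBOAT7 in function, 2 of 14 were named. LCLAT1, which remodels cardiolipin and phosphatidylinositol, gave -0.27 in muscle and -0.11 in liver (adjusted p = 0.47 and 0.844), and AGPAT1, which makes phosphatidic acid, gave 0.20 in kidney (adjusted p = 1.00).

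Of the genes of prostanoid synthesis and clearance that work beside PTGS2, 8 of 16 were named and 0 were called. PTGS1, the constitutive cyclooxygenase, gave 0.14 in muscle, 0.15 in liver and 0.31 in kidney, the last being the smallest p of the list there (adjusted p = 1.00). AKR1B1, an aldose reductase with prostaglandin F synthase activity, led in muscle (-0.16, adjusted p = 0.572), and CBR1, a carbonyl reductase that acts on prostaglandin E2, led in liver (-0.49, adjusted p = 0.68). Of the prostanoid receptors 2 of 9 were named. PTGER3, a receptor for prostaglandin E2, gave -0.20 in liver (adjusted p = 0.806).

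Lipoxygenase and leukotriene genes other than ALOX12 had 7 of 18 members named, and 0 were called. ALOX15, a related lipoxygenase, gave -0.15 in muscle, -0.12 in liver and 0.24 in kidney (adjusted p = 0.61, 0.934 and 1.00). GPX4, which reduces lipid hydroperoxides, led the list in muscle (0.15, adjusted p = 0.478). DPEP1, a dipeptidase that trims leukotriene D4, led in liver (-0.27, adjusted p = 0.558) but was well above background on 5 F2 C and 1 F2 E arrays, and ALOX5AP, the 5-lipoxygenase activating protein, led in kidney (0.27, adjusted p = 1.00). In the cytochrome P450 list 5 of 13 genes were named and 0 were called. In liver, all 9 of its probes, which stand for 5 genes, had a ratio below 0 (median -0.25). So did 32 of the 38 probes of all lists. The share of all liver probes below 0 was not computed (their median was -0.02), so these counts are no result about the lists. CYP2C49 was at -0.62 (adjusted p = 0.32) and EPHX1, the microsomal epoxide hydrolase, at -0.42 (adjusted p = 0.495). In kidney CYP4A21 had the smallest p of the list (0.73, adjusted p = 1.00), and in muscle it was CYP2C33, whose signal was well above background on 4 F2 C and 0 F2 E arrays and for which no ratio is given.

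**Figure D4:**
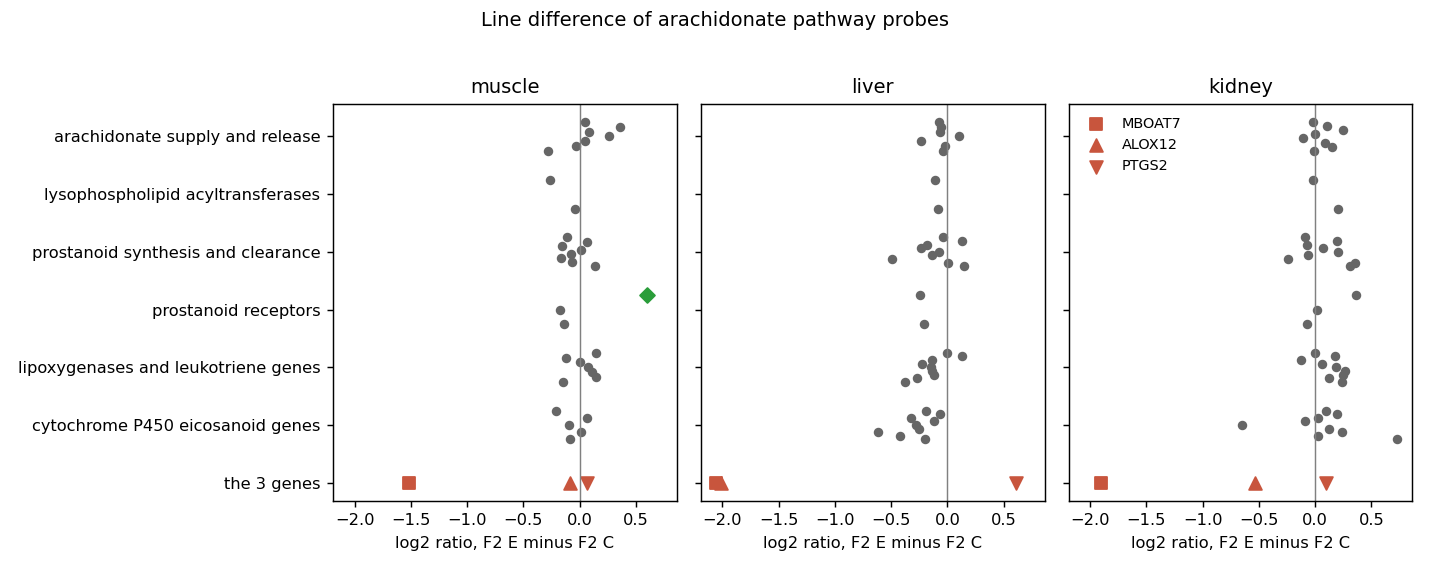
The log2 ratio, F2 E to F2 C, of every present probe of the 6 pathway lists and of MBOAT7, ALOX12 and PTGS2 (red symbols), by tissue; the green diamond is PTGFR, the probe with an adjusted p below 0.05. MBOAT7 in all tissues and ALOX12 in liver lie outside the range of the list probes, from -0.65 to 0.73.

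Probes of PNPLA8 and PTGER2 are named by the study and were picked by it on these arrays, so they are described without a test. A probe for PNPLA8, a phospholipase, had means of 7.79 ± 0.29 in F2 E and 8.39 ± 0.33 in F2 C muscle (SD, n = 8), a ratio of -0.60, against -0.17 in liver and -0.01 in kidney. A probe for PTGER2, another receptor of prostaglandin E2, had 6.16 ± 0.17 and 6.39 ± 0.06 in liver, a ratio of -0.24.

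Likeness of expression was described by Pearson's r over the 48 arrays after each tissue mean was removed, for 24271 probes, so a difference between the lines counts towards it. The arrays share pigs, slides and normalization, and no p is attached. For MBOAT7 the 5 most similar probes had r from 0.75 to 0.83 and none had a RefSeq name. Within single tissues the closest, A_72_P174531, had r of 0.92 in muscle, 0.82 in liver and 0.83 in kidney. Of the 5 probes, 3 placed F2 E pig 3 above all 7 other F2 E pigs in each tissue, whereas A_72_P080756 did not in muscle and kidney and A_72_P298449 did not in liver. The closest probe placed it above all 7 other F2 E pigs in each tissue, at 6.81 against at most 6.62 in muscle, 7.44 against at most 7.35 in liver and 7.49 against at most 7.16 in kidney. Among named genes, chosen after these values were seen, CYP2B22, a drug-metabolizing cytochrome P450, came closest (r = 0.65), with ratios of -1.16 in muscle, -0.82 in liver and -0.90 in kidney.

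For ALOX12 the 5 most similar probes had r from 0.61 to 0.67, and the fourth was NLN (r = 0.62), which encodes the peptidase neurolysin. In liver alone, over 16 pigs, the named genes most like ALOX12, chosen after seeing values, were IKBKG (r = 0.82), TDH (0.74), DCN (0.73), UCP3 (0.73) and NLN (0.72). Line means were not removed here, so the line difference of ALOX12 in liver counts towards these values. For PTGS2 the 5 most similar probes had r from 0.67 to 0.74 and no RefSeq name. Its nearest named genes, again chosen after seeing values, were CXCL2 (r = 0.65), JPH4 (0.63), CD40 (0.62), CCL2 (0.60) and DCN (0.60, by another probe than the one like ALOX12), among which CXCL2 and CCL2 are chemokines and CD40 is a receptor of immune signalling. Summed signals of the neutrophil and monocyte markers overlapped between the lines, with liver medians of 85826 in F2 C and 81228 in F2 E pigs. The members were less alike, with r of 0.55 between MBOAT7 and ALOX12, -0.10 between MBOAT7 and PTGS2 and -0.13 between ALOX12 and PTGS2.

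Genes near the 3 loci in the RefSeq order of pig genes were also followed, without use of coordinates, because the build behind the probes is not given in the sources used here. MBOAT7 lies between TSEN34 and TMC4 there, and PTGS2 lies beside PLA2G4A, the cytosolic phospholipase that releases arachidonate. The nearest genes with a named probe present in at least 1 tissue were 21 genes away from MBOAT7 (KLK4), 2 genes away from ALOX12 (ALOX15) and 7 genes away from PTGS2 (SMYD2), so close neighbours were not covered for MBOAT7. Of the 10 named genes followed around each locus, 0 probes were called in muscle or kidney (limma), beside 0.769% and 0.0119% of all probes, so a count of 0 is no result about these genes. In liver, where 0.0937% of all probes were called, 1 probe was called, GALP at 212 genes from MBOAT7 (-1.59, standard error 0.246, adjusted p = 0.00967), well above background on 8 F2 C and 4 F2 E arrays. At an unadjusted p below 0.05 (limma), 1 of 12, 2 of 13 and 0 of 12 probes around MBOAT7, ALOX12 and PTGS2 passed in muscle. In liver 2 of 13, 0 of 13 and 2 of 13 passed, and in kidney 0 of 14, 0 of 13 and 2 of 17. Over all probes present, 16.1%, 8.29% and 3.89% passed in muscle, liver and kidney, so counts this small are no result about these genes.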

How the data were processed

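RNA of 3 tissues from 16 pigs was hybridized to 48 one-colour Agilent porcine arrays, 4 arrays per slide. The authors scanned the arrays, and per the file headers Feature Extraction 10.5.1.1 produced the deposited spot intensities, which were not yet normalized between arrays. The median signal intensity was used here, quantile normalized within a tissue and taken to log2, which leaves tissues on separate scales. For comparisons of tissues the 48 arrays were normalized together. Spots marked as outliers were then set to missing, and spots of a probe were averaged.

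A probe was present where its linear signal exceeded 25 and was well above background in at least 50% of the arrays of a line. Lines were compared with limma 3.58.1 in R 4.3.3, with Benjamini-Hochberg adjustment over all present probes. Sex and its interaction with line were tested in the same way, and tissues with pig as a block. Relations across pigs were tested by exact permutation, or with 100000 permutations for 16 pigs, all two-sided. The scripts were tested on simulated data. The number of arrays limits the precision.

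RefSeq transcripts named 2628 of the 43603 probes. The genes and pathway lists were chosen with earlier results of these data known. Named were the 3 genes, per list and tissue the probe with the smallest p and every probe called, and the 5 probes most similar to each gene; other genes are marked as chosen after values were seen. Alternatives covered the signal and its scaling, marked spots, the presence filter, sex, slide, number series, the methods' t-test and leaving out each pig.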

Additional observations from a re-analysis of the deposited data

Results flagged for a closer look

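In 4 of the 18 groups of 8 pigs, 1 pig lay far from the others by Dixon's criterion. Chance meets it in about 1 of 20 independent groups of normally distributed values. The groups here share the same 16 pigs and 3 selected probes, so the count cannot be set against that rate. F2 E pig 3 stood above the other F2 E pigs for MBOAT7 in muscle, at a log2 signal of 8.28, and in liver, at 10.67. The same animal had the highest PTGS2 signal of the F2 E livers, 9.88. For ALOX12 in liver, the F2 E replicate 7 was the highest of its line at 7.90. Leaving out F2 E pig 3 moved the liver ratio of PTGS2 from 0.61 to 0.47.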

How the results depend on the processing

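Of 270 line ratios of the 3 genes under other settings, 261 moved by less than the spread of the pigs. Sex, number series or replicate in the model, and the presence filter, cannot move a ratio in this balanced design. The count therefore does not measure how firm the ratios are. The spread was the SD within lines, 1.00 for ALOX12 in liver, so -1.27 in the lower series beside -2.01 counted as unmoved. The MBOAT7 ratio in muscle became -2.11 with the processed signal. ALOX12 in kidney was -0.72 with the processed signal, -0.39 with the median signal scaled to the 75th percentile, and -0.72 and -0.35 in the lower and upper number series. PTGS2 gave -0.48 and 0.61 in these series in muscle and -0.56 and 0.76 in kidney. The count of pathway calls in muscle, 1 (PTGFR), fell to 0 with sex as a covariate, with slide as a random block, within the upper series, without the presence filter, with signals well above background on all 16 arrays and by the methods' t-test, and leaving out 1 pig gave 0 to 1. Within the lower series the count stayed at 1, but the call was ALOX15, and PTGFR had an adjusted p of 0.085 (limma). The replicate block gave 0 pathway calls in muscle, and over all probes it gave 51 calls in muscle, 22 in liver and 0 in kidney, against 197, 27 and 4 without the block. The r between same-numbered pigs of the lines ran from -0.57 to 0.58. An F2 C pig was most like its own number in 1 of 8 pairs in muscle, 3 of 8 in liver and 1 of 8 in kidney. In liver, replicates 5 to 8 of both lines shared slide, sex and number series. The numbers were therefore not taken as pairs. Slide as a random block left 5, 20 and 1 calls. Among tissue differences (limma), MBOAT7 kidney minus liver, -0.26, lost its call with pig as a random block and without a block, and was -0.16 in F2 E pigs. ALOX12 liver minus muscle was 1.45 in F2 C and -0.53 in F2 E pigs, kidney minus muscle was -0.51 in F2 C pigs, and kidney minus liver was -0.32 in F2 E pigs. PTGS2 kidney minus liver was -0.37 in F2 C pigs. All 171 sex and 152 covariation values kept their side of the threshold. The causes were not tested. A background correction by normexp was not run here. Dim signals, PTGS2 and PTGFR in muscle above all, limit what these ratios can show.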
